A study of Mus musculus with 4 samples.

Results

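Ly6c2 Plac8 monocytes of YUMMER1.7 melanomas were selected from single-cell counts by a gate on 7 genes or gene sums. A barcode was a member when it held at least 5 UMIs of Lyz2, at least 2 of Ly6c2 and at least 1 of Plac8, at most 2 UMIs of C1qa, C1qb and C1qc together, and none of the Cd3 genes (Cd3d, Cd3e and Cd3g), Siglech or Ccr7. A UMI is a molecular identifier, so a UMI count is a count of captured transcripts. Of 6625 barcodes that passed quality limits and carried 1 dominant hashtag, 3809 held at least 5 UMIs of Lyz2 (Lyz2-positive) and 2129 were members. The long treatment cohort gave 387 members of 1031 Lyz2-positive barcodes (37.5%), and the short treatment cohort gave 1742 of 2778 (62.7%).

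Classical monocytes leave the bone marrow through the chemokine receptor CCR2, circulate with high surface Ly6C, and enter inflamed tissue and tumors. There they can lose Ly6C and become macrophages or MHC class II-positive monocyte-derived cells, or, in blood, turn into nonclassical monocytes that patrol vessels. Lyz2 encodes lysozyme of the myeloid lineage, Ly6c2 encodes the Ly6C antigen and Plac8 encodes a cysteine-rich protein found in monocytes. MIF is a cytokine that binds CD74, with CD44, CXCR2, CXCR4 and ACKR3 as further receptors, and DDT is its homolog.

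YUMMER1.7 is a mouse melanoma line with a high mutation load that was injected under the skin of WT C57BL/6J male mice aged 7 to 8 weeks. In each cohort mice received isotype (ctrl), anti–PD-1 (10 mg/kg), anti-MIF (20 mg/kg) or anti–PD-1/anti-MIF. The short cohort received 2 doses over 1 week with tumors isolated at day 14, and the long cohort received 4 doses over 2 weeks with tumors isolated at day 21. Cells were sorted on CD45 and recombined as 80% CD45+ and 20% CD45- cells, labeled with a hashtag antibody per arm, and pooled to 1 gene expression library and 1 hashtag library per cohort. The mice of an arm share a hashtag and could not be told apart, so each arm is 1 sample and 8 arms entered the tests. Day, number of doses and library differ together between the cohorts and cannot be told apart.

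The hashtag oligonucleotides are shown because they alone tie a monocyte to its arm. Each is the 15-base tag of the antibody, written 5′ to 3′ as deposited with the counts.
Isotype: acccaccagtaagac
anti-PD1: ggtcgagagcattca
anti-MIF: cttgccgcatgtcat
anti-PD1-MIF: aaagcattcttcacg
anti-PD1-MIF-DDT: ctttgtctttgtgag
The sample labels name the first 4 as treatments. The tag named anti-PD1-MIF-DDT is in the files and not in the treatment label, so its 130 members in the long and 464 in the short cohort count toward the totals and enter no test.

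Arms differed in how cleanly their tag stood out. A barcode was kept when its top tag had at least 3 times the count of the second. Members of the long isotype arm had a median of 785 counts of their own tag, 193 of the second, and a median ratio of 3.79, close to that limit. The other long arms had median ratios of 23.8 (anti–PD-1), 5.41 (anti-MIF) and 5.34 (anti–PD-1/anti-MIF). Short arms lay between 8.42 and 27.3. The isotype arm of the long cohort was also the smallest, with 29 members and 271298 UMIs in their sum, against 4644132 UMIs in the largest, short anti–PD-1. The libraries shared 20 barcode sequences, carried by 5 long and 9 short members. Members held a median of 9803 UMIs in the long and 6920 in the short cohort.

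The values that chose the members are given as a description. In the long cohort the median member held 51 UMIs of Lyz2, 19 of Ly6c2 and 35 of Plac8. The short cohort gave medians of 47, 13 and 33 UMIs, so most members lay well inside the gate. A C1q transcript was present in 14.5% of long and 7.23% of short members. Of the 644 other Lyz2-positive barcodes of the long cohort, 78.4% exceeded the C1q limit and 63.8% fell under the Ly6c2 limit. Of the 1036 in the short cohort, 48.2% exceeded the C1q limit and 65.5% fell under the Ly6c2 limit. The comparison class thus held a larger share of C1q-positive barcodes in the long cohort. In the mm10 (GRCm38) assembly Ly6c2 lies at chr15:75108158-75111970 and Plac8 at chr5:100553725-100572245, both protein-coding genes on the minus strand.

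The barcodes at the Ly6c2 limit were close neighbors in the short cohort. The 118 members with exactly 2 UMIs had 309.9 CPM of Ccr2 and 345 CPM of Ace, and the 153 barcodes left out with 1 UMI had 253 and 397 CPM. In the long cohort 28 such members had 333 CPM of Ccr2 and 1498 CPM of H2-Ab1, and 33 barcodes left out had 216 and 3409 CPM. At the C1q limit, the 34 short members with 2 UMIs had 445 CPM of Ccr2 and the 11 barcodes with 3 UMIs had 426. CPM values are UMI counts normalized to the UMI total of the summed barcodes throughout.

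The label was checked on markers outside the gate after each barcode was thinned to 3000 UMIs, which kept 385 of 387 long and 1695 of 1742 short members. T-like barcodes (at least 3 Cd3 UMIs and under 5 of Lyz2, 242 long and 267 short at that depth, with medians of 5355 and 4172 UMIs before thinning) served as the comparison for free RNA. In them free RNA was not told apart from transcripts of the T-like barcodes themselves. Ccr2, the receptor of monocyte egress, was found in 61.3% of long and 57.6% of short members, against 8.68% and 15% of T-like barcodes. It was nearly as frequent in the other Lyz2-positive barcodes, at 49.8% and 53.0%. Before thinning the shares of members with Ccr2 were 85.5% and 77.3%.

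General myeloid markers gave similar shares in both classes, with Csf1r in 66.5% of long and 64.8% of short members against 70.0% and 68.4% of the others, Fcgr1 in 68.8% and 52.5% against 67.1% and 50.9%, and Itgam in 68.1% and 67.0% against 62.0% and 66.7%. Markers that fade as monocytes mature were more frequent in members. Chil3, a chitinase-like protein of marrow-derived monocytes, was found in 47.5% of long and 53.2% of short members against 11.3% and 24.8% of the other Lyz2-positive barcodes. Vcan, the matrix proteoglycan versican, reached 31.9% and 34.4% against 6.12% and 15.8%. Chil3 and Vcan were near 0 in T-like barcodes (0 of 242 in the long cohort for each gene, which allows up to 1.51% by the exact 95% interval). Hp (haptoglobin) was found in 31.2% and 39.8% of members and F13a1 (coagulation factor XIII A) in 35.6% and 38.9%, above the other class in both cohorts (Hp 7.89% and 17.2%, F13a1 12.6% and 21.4%). These shares describe a gate and carry no test, and their intervals cover counting error only. Of the gate genes, Ly6c2 was found in 44.6% and 58.8% and Plac8 in 36.8% and 56.9% of T-like barcodes, so neither sets monocytes apart alone at this depth.

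Defining markers of melanoma, T and B cells were at or near 0 in the members, while dendritic and NK cell lists were not. Of 8 melanoma genes, 7 had no UMI in any of the 8 arms, among them Mlana, Pmel, Dct, Sox10, Tyrp1 and Tyr, and the list sum of 48.1 to 90.4 CPM came from Mitf, which myeloid cells also express. The 8 T cell genes summed to between 0 and 7.85 CPM per arm, with Cd4 at 0. The 6 B cell genes summed to between 0 and 9.97 CPM, with Ms4a1 at 0. Xcr1, a receptor of type 1 conventional dendritic cells, was found in 0 of 385 long and 1 of 1695 short members. Flt3 (dendritic cell growth factor receptor) was found in 0.779% and 1.24%. The 6 genes of type 1 dendritic cells nonetheless summed to 206 to 376 CPM per arm, mostly Irf8 (mean 194 CPM) and Wdfy4 (69.9 CPM), which was found in 12.2% of long and 20.6% of short members at 3000 UMIs. The 7 cDC2 genes summed to 66.3 to 208 CPM (Itgax 81.6), the 7 plasmacytoid dendritic cell genes to 88.5 to 169 CPM (Tcf4 67.5) and the 7 NK cell genes to 25.3 to 92.7 CPM (Klrk1 44.8).

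Neutrophil transcripts differed widely between arms. The 12 neutrophil genes summed to 31.8 CPM in long anti-MIF members and to 15543 CPM in long anti–PD-1/anti-MIF members, with values between 152 and 2192 CPM in the other 6 arms. Single barcodes carried these sums. In the long anti–PD-1/anti-MIF arm 1 member held all 1815 UMIs of Ngp and all 1003 of Camp, both granule proteins of neutrophil precursors, and 3409 of the 3919 UMIs of S100a8. In the short anti-MIF arm 1 member held all 457 UMIs of Retnlg and 903 of 1413 UMIs of S100a8. Cxcr2, the neutrophil chemokine receptor, was found in 0.519% of long and 0.472% of short members. The cohort test was repeated without the 9 long and 9 short members that held over 50% of an arm's UMIs of a gene with at least 50 UMIs there, and its counts are given there.

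Against the other Lyz2-positive barcodes, 6 of 7571 genes (0.0792%) were at least 2-fold higher in all 8 arms and 18 (0.238%) at least 2-fold lower, a contrast that the gate itself used and that has no test. The higher genes include Ly6c2 and the lower ones C1qa, C1qb and C1qc, whose values chose the members, and nothing is read from them. Among the higher genes outside the gate were Cd177, Hp, Mgst1 and Il15. CD177 is a surface protein known from neutrophils, MGST1 is a microsomal glutathione transferase and IL-15 is a cytokine for NK and CD8 T cells. Hp had 516, 236, 107 and 407 CPM in long members (isotype, anti–PD-1, anti-MIF, anti–PD-1/anti-MIF) and 373, 261, 253 and 253.5 CPM in short members. The other class had 10.9 to 67.8 CPM of Hp in long and 51.2 to 103.5 CPM in short arms, so no arm overlapped. Hp gave a mean log2 ratio of 2.40 ± 0.91 (SD, n = 8 arms, on the log2(CPM + 1) scale). Il15 varied least among these 4 genes, with a mean log2 ratio of 1.41 ± 0.12 and arms between 1.26 and 1.66.

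The lower genes outside the gate had varied functions. Pf4, a CXC chemokine, had a mean of 5.99 CPM in members and 88.4 CPM in the others (mean log2 ratio −4.32 ± 1.46, n = 8 arms). Cd81, a tetraspanin, had 15.4 and 138 CPM (−3.05 ± 0.72), and Mrc1, the mannose receptor, had 8.75 and 44.2 CPM (−2.33 ± 1.23). Mgl2 (a galactose-type lectin), Dcstamp (cell fusion), Hpgds (prostaglandin D synthase), Cd72 (an inhibitory lectin), Klrb1b (an NK receptor family lectin), Tnfsf8 (CD30 ligand) and Mcm6 (a helicase subunit of DNA replication) were lower in all 8 arms, with Zmynd15, Arhgap22, Tspan4, Frmd4b and Trim47. With log2(CPM + 10) 5 genes were higher and 10 lower, and after thinning to 3000 UMIs 2 were higher and 14 lower. With 1 arm left out, 6 to 12 were higher and 18 to 29 lower, the most without short anti-MIF and without long anti-MIF.

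**Figure D1:**
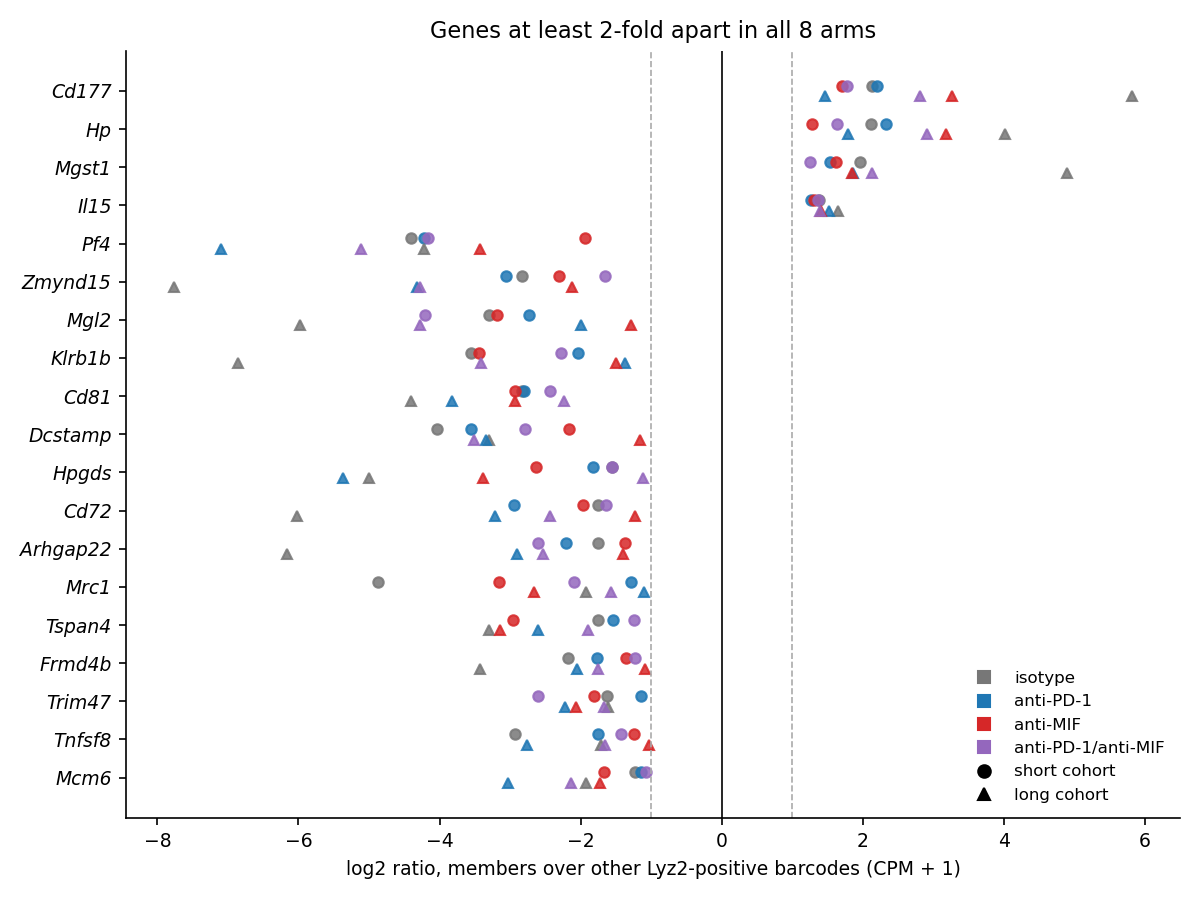
Log2 ratio of Ly6c2 Plac8 monocytes over the other Lyz2-positive barcodes (x axis, log2 of CPM + 1) for genes outside the gate that were at least 2-fold apart in all 8 arms; points are arms, colored by treatment, circles for the short and triangles for the long cohort, dashed lines at 2-fold. The 8 points of Il15 lie between 1.26 and 1.66, whereas those of Cd177 spread from 1.46 to 5.82.

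Members were not uniform. Ace, the angiotensin-converting enzyme, which marks nonclassical monocytes in mouse, was found at 3000 UMIs in 65 of 385 long members (16.9%) and 396 of 1695 short members (23.4%). By arm (isotype, anti–PD-1, anti-MIF, anti–PD-1/anti-MIF) the share was 17.2%, 18.8%, 16.5% and 20.0% of long members. Short members gave 23.4%, 19.0%, 22.3% and 23.6%, so Ace-positive members were present in every arm. Their Ly6c2 was 1554 against 3238 CPM in the long and 1860 against 2874 CPM in the short cohort. Ly6c2 is a gate gene whose values chose the members, so nothing is read from it. Ccr2 was found in 44.6% of Ace-positive and 64.7% of Ace-negative long members, and in 41.2% and 62.7% of short members. F13a1 was found in 15.4% against 39.7% and in 20.5% against 44.6%.

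Other genes of nonclassical monocytes followed Ace within the gate. Adgre4, an adhesion receptor, was found in 32.3% of Ace-positive and 3.44% of Ace-negative members of the long cohort, and in 33.6% and 5.93% of the short cohort. Treml4, a receptor of the TREM family, was found in 26.2% against 4.69% and in 24.5% against 5.93%. Ear2 (an eosinophil-associated ribonuclease) was found in 32.3% against 6.25% and in 31.1% against 7.70%, and Nr4a1, a transcription factor of nonclassical monocytes, in 70.8% against 53.8% and in 76.8% against 55.1%. Spn (CD43), Ceacam1 and Cx3cr1 showed the same order in both cohorts. The split on Ace was chosen after its values were seen, members with and without a UMI at this depth form a range and not types, and no test was made.

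A second axis ran from Chil3 and Hp to MHC class II. H2-Ab1, the beta chain of I-A, was found in 49.4% of long and 41.4% of short members. In H2-Ab1-positive members Chil3 was found in 32.1% against 62.6% of the negative in the long cohort, and in 36.8% against 64.9% in the short cohort. Hp was found in 12.6% against 49.2% and in 23.1% against 51.7%, and F13a1 in 18.9% against 51.8% and in 24.2% against 49.3%. Ccr2 did not follow this axis, with 64.2% against 58.5% in the long and 59.8% against 56.1% in the short cohort. Il1b, the proinflammatory cytokine IL-1β, was found in 90.5% of H2-Ab1-positive and 68.2% of negative long members, and in 83.9% and 70.8% of short members. This split too was chosen with the values in view and has no test. It pools arms that differ in both genes. Among the long treatment arms, Chil3 was found in 34.0% of anti-MIF members and in 55.1% to 61.7% of the others. The anti-MIF arm also had the highest H2-Ab1 among them (3031 CPM), and the part of arms in the split was not tested.

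**Figure D2:**
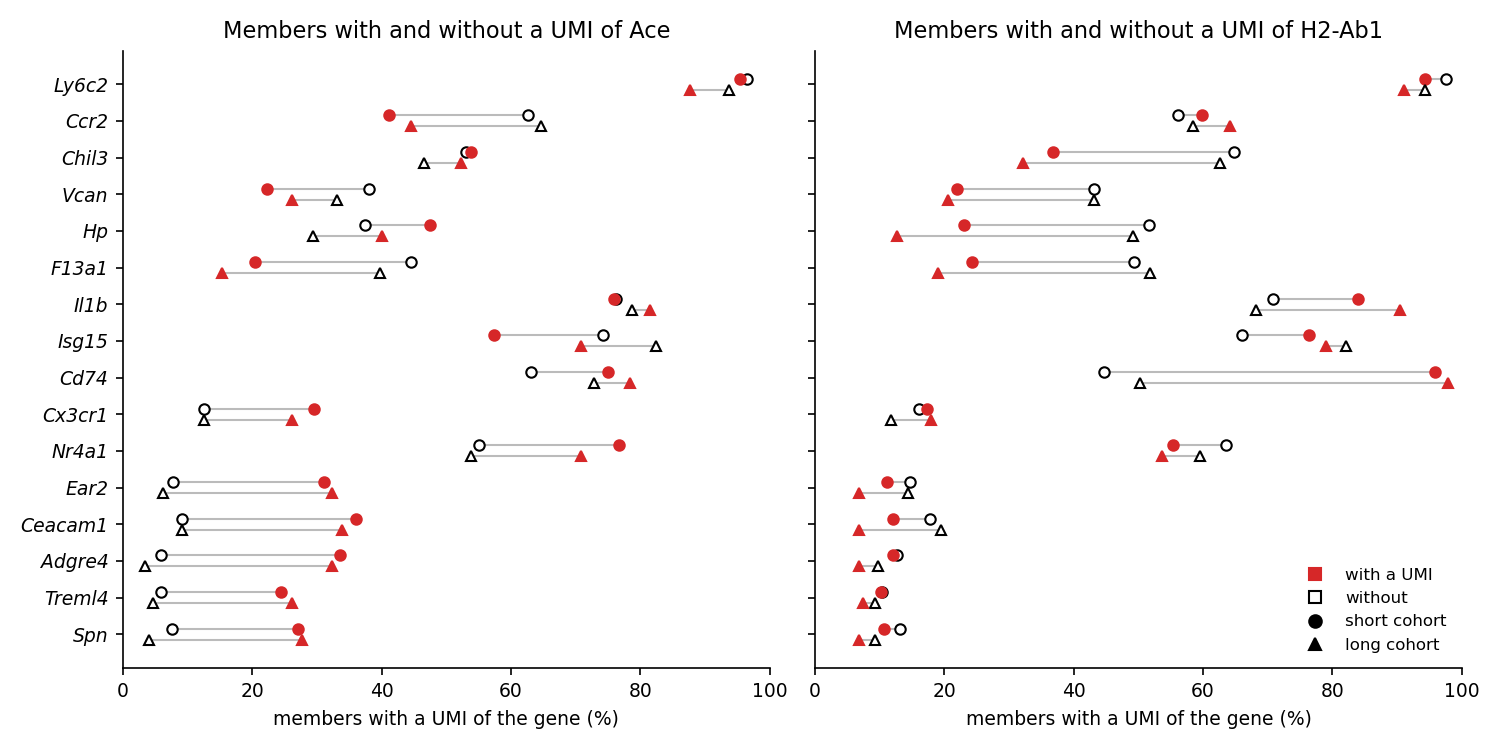
Share of Ly6c2 Plac8 monocytes with a UMI of each gene (x axis, percent, after thinning to 3000 UMIs), split by a UMI of Ace (left) or of H2-Ab1 (right); filled red symbols are barcodes with and open symbols those without a UMI of the splitting gene, circles for the short and triangles for the long cohort. Adgre4, Treml4, Ear2 and Spn separate on the left, Chil3, Hp and F13a1 on the right.

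The share of members asks whether treatment or time moved the balance between Ly6c2 Plac8 monocytes and the other Lyz2-positive cells. In the long isotype arm 29 of 50 Lyz2-positive barcodes were members (58.0%, exact Clopper-Pearson 95% interval 43.2 to 71.8), and in the long anti–PD-1 arm 70 of 122 (57.4%, 48.1 to 66.3). Long anti-MIF gave 97 of 498 (19.5%, 16.1 to 23.2) and long anti–PD-1/anti-MIF 61 of 139 (43.9%, 35.5 to 52.5). Among the short arms, isotype gave 249 of 459 (54.2%, 49.6 to 58.9), anti–PD-1 657 of 979 (67.1%, 64.1 to 70.0), anti-MIF 193 of 338 (57.1%, 51.6 to 62.4) and the combination 179 of 271 (66.1%, 60.1 to 71.7). The long anti-MIF arm stood below every other arm. Intervals cover counting error only.

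With anti-MIF the share was lower in 3 of 4 matched pairs, by a mean of 12.6 percentage points (difference −12.6 ± 18.7, SD, n = 4, exact two-sided sign-flip permutation p = 0.375). The pairs differed by −38.5 and −13.5 points in the long and by 2.85 and −1.06 points in the short cohort, so the long pairs carried the mean, and without the pair of long anti-MIF and isotype it was −3.90 points. With anti–PD-1 the share was higher in 3 of 4 pairs (11.4 ± 10.4 points, exact permutation p = 0.25). Between cohorts the long arms were lower in 3 of 4 pairs (−16.4 ± 17.6 points, exact permutation p = 0.25), with the isotype pair at 3.75 points. With the gate applied after thinning to 3000 UMIs, the mean cohort difference was smaller, at −10.5 points (lower in 3 of 4, exact permutation p = 0.375). The isotype share was then 65.8% in the long and 47.1% in the short cohort. At that depth the mean was −17.6 points for anti-MIF (lower in 3 of 4) and 10.8 points for anti–PD-1 (higher in 3 of 4). The smallest p that 4 pairs allow is 0.13, so no share could pass 0.05.

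The share of members among all kept barcodes gave a different order. They made up 18.2%, 18.1%, 10.8% and 21.2% of the long arms and 33.5%, 38.3%, 34.0% and 37.6% of the short arms. The long cohort was lower in 4 of 4 pairs (−18.8 ± 3.64 points), and anti-MIF gave −1.13 ± 4.47 points, lower in 2 of 4. Lyz2-positive barcodes were 55.6% of the long anti-MIF arm, against 31.4% with isotype, 31.6% with anti–PD-1 and 48.3% with anti–PD-1/anti-MIF, so the denominators differed within that cohort. With the stricter tag limit of 5 times the second, the long isotype share was 33.3% and the long anti-MIF share 14.9%, so that this pair differed less, and the mean for anti-MIF was −10.3 points (lower in 3 of 4). The cohort difference was −25.8 points (lower in 4 of 4) and that of anti–PD-1 was 16.9 points (higher in 4 of 4), each at the smallest exact permutation p of 0.13.

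**Figure D3:**
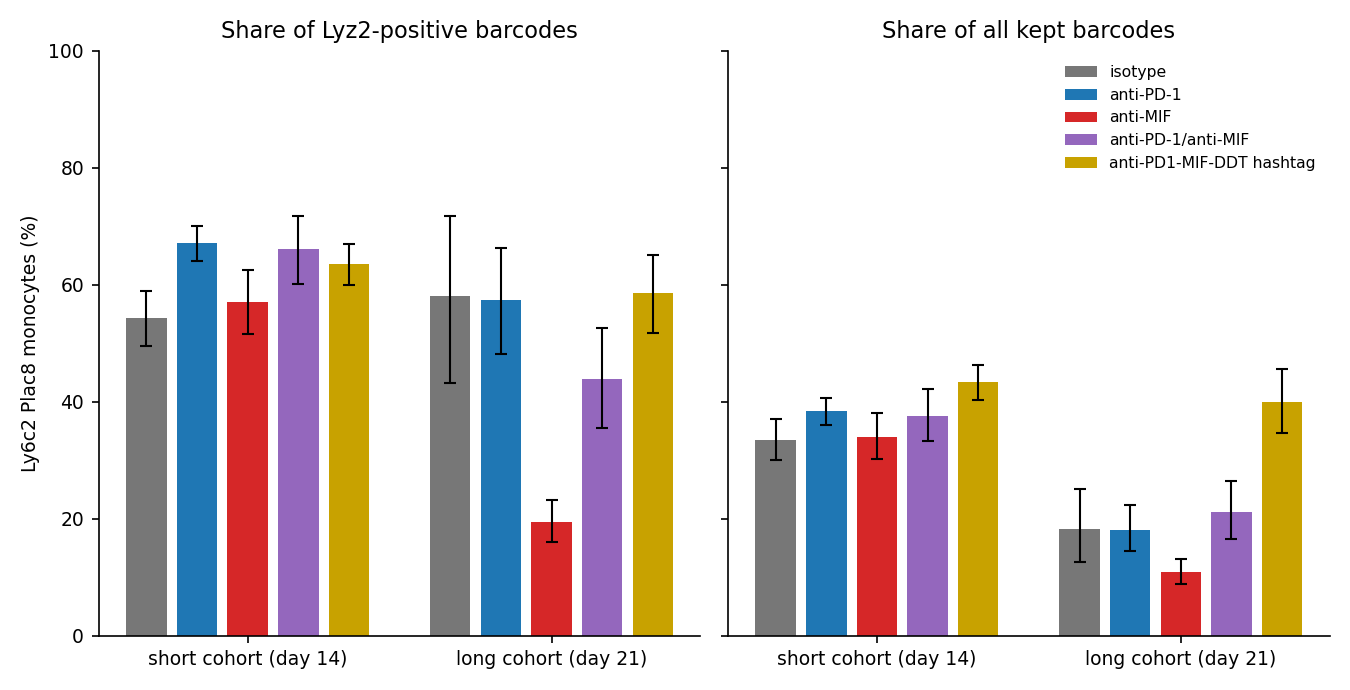
Ly6c2 Plac8 monocytes as a percentage of Lyz2-positive barcodes (left) and of all kept barcodes (right) in each arm; bars are single arms without replicates and error bars are exact 95% intervals of counting error. On the left the long anti-MIF bar is at 19.5% and the others lie between 43.9% and 67.1%; on the right all 4 long treatment arms lie at or under 21.2% and all short arms at or over 33.5%, with the long arm of the tag named for DDT at 40.0%.

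To ask whether anti-MIF changed the monocytes themselves, UMIs of members were summed per arm and 8001 genes were tested with the edgeR quasi-likelihood test, with cohort and anti–PD-1 as terms. At a Benjamini-Hochberg adjusted p of 0.05 no gene was higher (0%) and none lower (0%), with 448 genes at an unadjusted p under 0.05, and DESeq2 called 1 higher. The genes of smallest p, none of which passed, were Gzma, Hspb1, Sh2b2, Nrg1 and Slpi (edgeR quasi-likelihood adjusted p = 0.65 for each). Nrg1, the growth factor neuregulin, had 22.1, 31.7, 18.7 and 16.03 CPM in the long and 79.0, 193, 41.7 and 39.1 CPM in the short arms (isotype, anti–PD-1, anti-MIF, anti–PD-1/anti-MIF), lower with anti-MIF in 4 of 4 pairs (log2 fold change −1.39 ± 0.30, SE). Slpi, a secreted protease inhibitor, had 527, 386, 319 and 259.5 CPM in the long and 551, 417, 378 and 332 CPM in the short arms (−0.56 ± 0.12), and Sh2b2, a signaling adaptor, gave −0.78 ± 0.17, each lower in 4 of 4 pairs. Gzma and Hspb1 came mostly from single barcodes, with 61 of the 86 Gzma UMIs of short anti–PD-1 and 136 of the 165 Hspb1 UMIs of short isotype in 1 member each.

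Chil3 and the MHC class II genes had their extreme values in the long anti-MIF arm. Chil3 had 1644, 859, 247 and 1482 CPM in the long arms and 1071, 547, 984 and 585 CPM in the short arms, lowest with long anti-MIF. H2-Ab1 had 571, 1206, 3031 and 1293 CPM in the long and 783, 1345, 854 and 1594 CPM in the short arms, highest in that same arm. Cd74, the invariant chain and MIF receptor, had 2801, 6507, 12394 and 6065 CPM in the long and 2972, 4909, 3501 and 5943 CPM in the short arms. At 3000 UMIs, H2-Ab1 was found in 74.2% of long anti-MIF members and 31.0% of long isotype members, each arm being 1 sample. H2-Ab1 was higher with anti-MIF in 4 of 4 pairs, by 2.41 log2 units in that pair and by 0.10, 0.12 and 0.24 in the others. Over 4 pairs Cd74 gave a log2 fold change of 0.66 ± 0.30 (higher in 3), H2-Aa 0.80 ± 0.35 (higher in 4) and H2-Ab1 0.75 ± 0.35, none of which passed (edgeR quasi-likelihood adjusted p = 0.86 for each). Of the 8 tested MHC class II genes 8 were fitted higher with a median of 0.64, against 0.01 over all 8001 genes, and none passed. Long anti-MIF members also had the highest sums of the 7 cDC2 genes (208 CPM, against 66.3 in long isotype) and of the 23 macrophage maturation genes (8598 against 7800 CPM), the lowest mitochondrial share (0.468%) and the lowest Neat1 (223 CPM), and the part of these in the values was not tested.

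Of 25 monocyte markers outside the gate 18 were fitted lower with anti-MIF and 7 higher, with a median of −0.07 against 0.01 over all genes, and none passed. Chil3 was higher in 2 and lower in 2 pairs, and Hp was lower in 3 of 4. F13a1 had 564, 413, 99.2 and 239 CPM in the long and 437, 329, 300.2 and 260.1 CPM in the short arms (log2 fold change −0.98 ± 0.30, lower in 4 of 4 pairs, edgeR quasi-likelihood adjusted p = 0.65). Cx3cr1, the fractalkine receptor, gave 0.91 ± 0.20, higher in 4 of 4. Among the target pathway, Mif had 509, 568, 828 and 510.2 CPM in the long and 474, 467, 614 and 668 CPM in the short arms (0.34 ± 0.15, adjusted p = 0.86), and Cd44, the coreceptor of CD74, gave −0.47 ± 0.14 (adjusted p = 0.65). With 1 arm left out, 0 to 4 genes were called higher and 0 to 1 lower.

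Anti–PD-1 gave no call among the 8001 genes either, with 0% higher and 0% lower by edgeR, 337 genes at an unadjusted p under 0.05 and 0 calls by DESeq2. The genes of smallest p were Trem2 (a lipid receptor of macrophages, log2 fold change −0.79 ± 0.16), Pf4, Scd2 (a fatty acid desaturase, −1.03 ± 0.22), Id3 (an inhibitor of helix-loop-helix factors, 1.05 ± 0.23) and Bag3 (a heat shock cochaperone, 1.12 ± 0.25), all at an edgeR quasi-likelihood adjusted p of 1.00. Genes induced by IFN-γ were fitted higher in 18 of 18 cases, with a median of 0.55 against 0.00 over all genes. Cxcl10, a chemokine for CXCR3-positive T cells, had 560.3, 2069, 2072 and 767 CPM in the long and 946, 1787, 975 and 1123 CPM in the short arms, higher in 3 of 4 pairs (0.34 ± 0.39), with 89 of the 152 UMIs of long isotype in 1 barcode. Igtp, an immunity-related GTPase named after its values were seen, had 111, 149, 105 and 119 CPM in the long and 42.7, 149, 63.8 and 111 CPM in the short arms, higher in 4 of 4 pairs (0.87 ± 0.23).

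The higher sum with anti–PD-1 was not seen in every pair. Short anti–PD-1 members had the highest sum of the 18 genes, 5800 CPM against 1971 with short isotype, and 4604 against 3236 in the long cohort. With anti-MIF in both arms the sum was 3746 against 2622 in the short and 2560 against 5063 in the long cohort, the opposite order. Gbp2 (0.48 ± 0.35) and Cxcl9 (0.47 ± 0.81) were higher in 2 of 4 pairs. Genes induced by type I IFN were fitted higher in 34 of 35 cases with a median of 0.26, and Cd274, which encodes PD-L1, gave 0.51 ± 0.21 (higher in 4 of 4). None of these genes passed, and with 1 arm left out 0 to 5 genes were called higher and 0 to 0 lower.

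The cohorts differed more, although each was 1 gene expression library and its arms are not replicates of a cohort. Between the long and the short cohort 156 of 8001 genes (1.95%) were higher in long members and 142 (1.77%) lower at an edgeR adjusted p of 0.05, with 1749 genes at an unadjusted p under 0.05 and a median log2 fold change of 0.01 over all genes. DESeq2 called 161 higher and 144 lower, and 215 of the calls were shared. Without the 18 members that dominated single genes 157 were higher and 130 lower. The number of calls depended on single arms. It was 1 without long anti–PD-1, 2 without short anti–PD-1/anti-MIF, 39 without short anti-MIF, 43 without short anti–PD-1, 48 without long isotype, 55 without short isotype, 184 without long anti-MIF and 282 without long anti–PD-1/anti-MIF, while every called gene that was tested kept its sign in all 16 alternatives.

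Of 21 tested genes of glycolysis and hypoxia 5 rose in the long cohort, against 1.95% of all genes. Pkm, pyruvate kinase, had 1954, 1633, 1806 and 1697 CPM in the long and 918, 1054, 1080 and 917 CPM in the short arms (isotype, anti–PD-1, anti-MIF, anti–PD-1/anti-MIF). The groups did not overlap (log2 fold change 0.86 ± 0.12, edgeR quasi-likelihood adjusted p = 0.0156). Aldoa, aldolase, had 1459 ± 105 CPM in the long and 904 ± 136 CPM in the short arms (SD, n = 4 each, 0.72 ± 0.11, adjusted p = 0.02 by edgeR), and Ldha, lactate dehydrogenase, had 1060 ± 121 and 661 ± 81.6 CPM (0.71 ± 0.12, adjusted p = 0.0204). Gapdh (0.56 ± 0.10) and Pgam1 (0.59 ± 0.12) passed as well. None of the 21 fell, 14 were fitted higher, and the median was 0.27.

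Interferon-stimulated genes rose in part. Ifit3, an antiviral protein with tetratricopeptide repeats, had 299, 556, 562 and 485 CPM in the long and 169, 225, 223 and 269 CPM in the short arms, without overlap (1.13 ± 0.16, edgeR adjusted p = 0.0156). Irf7, the transcription factor that amplifies type I IFN, had 638, 939, 1078 and 598 CPM in the long and 263, 385, 352 and 407 CPM in the short arms (1.25 ± 0.20, adjusted p = 0.0204). Usp18, which removes ISG15 from proteins, gave 0.77 ± 0.17, and Slfn1 and Slfn4, of the Schlafen family, gave 0.73 ± 0.15 and 0.81 ± 0.15, all past the threshold. Isg15, an abundant ubiquitin-like member of the list, had 1843 ± 234 and 1491 ± 465 CPM and did not pass (0.38 ± 0.18, edgeR adjusted p = 0.241). Of 35 tested genes induced by type I IFN, 5 rose (1.95% of all genes did), 0 fell and 31 were fitted higher, with a median of 0.38. Of 18 genes induced by IFN-γ none passed (median 0.22).

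The promoter of Ifit3 is shown because it carries 2 copies of the interferon-stimulated response element, searched as GAAA, any 2 bases (NN) and GAAA again on both strands in the 250 bases before gene starts of RefSeq (GRCm38.p6). Both copies read on the reverse strand, where the motif appears as TTTC, NN and TTTC, and the match is in capitals.
chr19:34583363-34583392, plus strand: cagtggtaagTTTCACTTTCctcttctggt
chr19:34583397-34583426, plus strand: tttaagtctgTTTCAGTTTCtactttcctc
The motif was found in 978 of 32851 promoters (2.98%) and in 15 of 29 list members with a promoter in the table (51.7%). Of the 4 matched list genes that rose, only Ifit3 held it. A match describes letters and not a site in use.

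C5ar1 and C3ar1 rose, as did 2 of 13 tested chemokine ligands, against 1.95% of all genes. C5ar1, the receptor of complement C5a, had 166, 177, 171 and 214 CPM in the long and 110.4, 66.3, 99.9 and 78.9 CPM in the short arms, without overlap (1.09 ± 0.18, edgeR adjusted p = 0.0204). C3ar1, the C3a receptor, had 193 ± 27.2 against 107 ± 22.7 CPM (0.90 ± 0.16, edgeR adjusted p = 0.0235), and of 11 Fc and complement receptors 2 rose (1.95% of all genes did) and all 11 were fitted higher, with a median of 0.24. Ccl2, a CCR2 ligand, had 523, 537, 634 and 561 CPM in the long and 424, 437, 312 and 254 CPM in the short arms (0.71 ± 0.17, edgeR adjusted p = 0.0492), and was called in 4 of 16 alternatives. Ccl12, another CCR2 ligand, passed (1.24 ± 0.21, adjusted p = 0.0222), but 151 of its 184 UMIs in long anti–PD-1/anti-MIF lay in 1 barcode, and without such members it did not pass (0.99, adjusted p = 0.148 by edgeR).

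Of 5 tested genes for MIF, DDT and their receptors, Cxcr4 and Cd44 fell and none rose. Cxcr4, a chemokine receptor of marrow retention, had 136, 122, 167 and 176 CPM in the long and 325, 275, 215 and 274 CPM in the short arms (−0.82 ± 0.18, edgeR adjusted p = 0.036). Cd44 had 689, 652, 611 and 573 CPM in the long and 1407, 1159, 800 and 784 CPM in the short arms (−0.65 ± 0.14, edgeR adjusted p = 0.0347). Neither gene overlapped between cohorts. Itgal, the LFA-1 integrin chain, fell as well (−0.74 ± 0.15), so 3 of 16 tested trafficking receptors fell and none rose, against 1.77% lower and 1.95% higher of all genes. Ccr2 had 407 ± 61.6 CPM in the long and 408 ± 52.9 CPM in the short arms (0.02 ± 0.15, edgeR adjusted p = 0.961). Mif (0.15 ± 0.14) and Ddt (0.32 ± 0.17) did not pass.

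Of 8 tested MHC class II genes 2 rose, against 1.95% of all genes. H2-DMb1 and H2-DMb2, beta chains of the H2-DM complex that loads MHC class II, gave 0.97 ± 0.22 (358 ± 151 against 183 ± 37.2 CPM) and 2.08 ± 0.46 (25.3 ± 22.5 against 5.73 ± 1.45 CPM), both past the threshold. H2-DMb2 had 59.0 CPM in long anti-MIF and 11.7 to 15.8 CPM in the other long arms, and H2-DMb1 overlapped between cohorts. All 8 genes were fitted higher, with a median of 0.53, but H2-Ab1 (0.35 ± 0.35) and Cd74 (0.66 ± 0.30) did not pass. H2-Ab1 was lower in the long cohort in 3 of 4 pairs (−0.45, −0.16 and −0.30) and higher in the anti-MIF pair alone (1.83). H2-T22, a nonclassical MHC class I gene, was the only one of 16 class I genes to pass (0.87 ± 0.21). Among 22 macrophage maturation genes, with the same 1.95% of all genes as background, Cd68, a lysosomal glycoprotein, and Cd81 rose (0.62 ± 0.14 and 1.34 ± 0.32) and 20 were fitted higher, with a median of 0.41. Cd81 overlapped between cohorts, with 7.37, 15.8, 40.2 and 23.3 CPM in long and 6.89 to 9.97 CPM in short arms, was lower in the isotype pair and was called in 3 of 14 alternatives. None of the 25 monocyte markers outside the gate passed in either direction, with a median of 0.04.

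These counts too stand beside 1.95% higher and 1.77% lower of all genes. Of 22 immediate early and stress genes Egr1 and Ier5, both induced within minutes of stimulation, rose (0.87 ± 0.18 and 0.66 ± 0.13) and none fell. Of 24 myeloid transcription factors Irf5, which drives inflammatory cytokines, and Atf5 rose (0.68 ± 0.12 and 1.91 ± 0.46) and Runx1 fell. Among 3 tested genes of type 1 dendritic cells Wdfy4 fell (−0.75 ± 0.17). No gene passed among 12 tested inflammatory cytokines, 15 genes of suppressive myeloid cells, 13 of the BCL2 family, 11 of the Vegfa and matrix list and 9 of the cell cycle. The 8 tested neutrophil genes, none of which passed, had a median of 2.13, with the single barcodes described above in both cohorts.

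**Figure D4:**
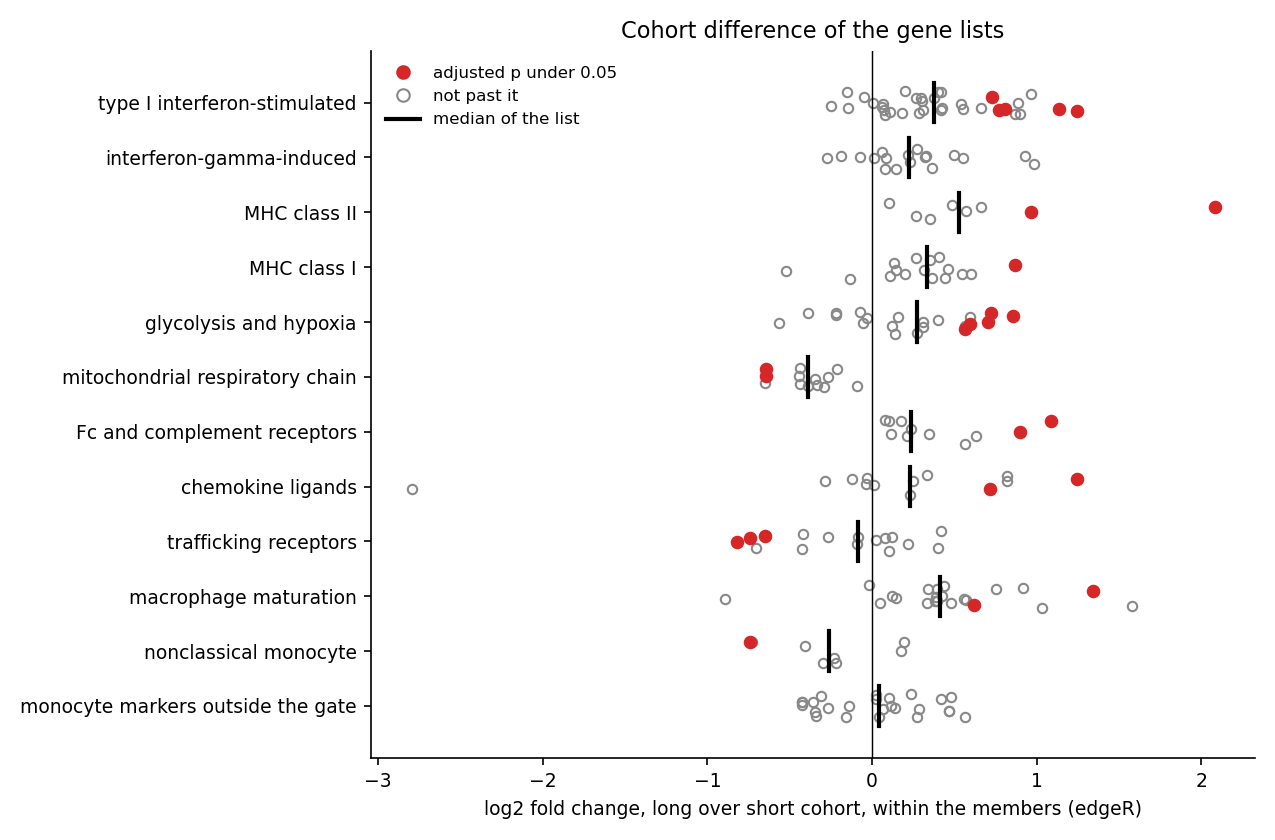
Log2 fold change of long over short cohort within Ly6c2 Plac8 monocytes (x axis, edgeR) for each tested gene of 12 lists; filled red points passed an adjusted p of 0.05, open points did not, and the bar is the median of the list. Glycolysis, type I IFN and MHC class II genes lie mostly to the right of 0 and all 13 mitochondrial genes to the left.

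By size of change, the 10 leading genes in each direction were named among those that passed with the same direction in 4 of 4 pairs. The higher set was Chtf8 (2.40), H2-DMb2, Myc (1.97), Atf5 (1.91), Ppan (1.87), Eno1b (1.83), Kcna3 (1.81), Gm43305 (1.54), Ckb (1.49) and Gm14548 (1.48). Some rested on few UMIs over the arms of a cohort, with 31 long and 20 short for Chtf8, 33 and 30 for Atf5 and 39 and 38 for Ppan. Chtf8, Atf5 and Ppan were called in 6, 2 and 7 of 14 alternatives, and Gm43305 in 12 of 16. Myc, the growth transcription factor, had 11.1, 19.0, 44.0 and 24.8 CPM in the long and 9.32, 4.95, 5.06 and 7.48 CPM in the short arms (edgeR adjusted p = 0.0238), ATF5 is a stress response factor, Ppan acts in ribosome assembly and Ckb is the brain creatine kinase. Eno1b had 169.6, 176, 219 and 187 CPM in the long and 57.9, 46.1, 67.0 and 45.7 CPM in the short arms (edgeR adjusted p = 0.000406) and was the gene called in all 16 alternatives. It is nearly identical to Eno1, so how its reads were split is uncertain.

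The lower set was Gzma, March3 (−2.33), Kcnq1ot1 (−2.32), Ksr1 (−2.15), Cnbd2 (−1.99), F5 (−1.95), Stxbp6 (−1.82), Nrg1 (−1.75), Fam193b (−1.74) and Prdm10 (−1.61). March3, Kcnq1ot1, Ksr1 and Cnbd2 had only 10, 7, 8 and 8 UMIs over the long arms, against 226, 110, 115 and 105 over the short arms. In the same order, they were called in 7, 5, 5 and 3 of 14 alternatives. F5 was called in 12 of 15 and Nrg1 in 12 of 16. March3 is a membrane ubiquitin ligase, Kcnq1ot1 a long noncoding RNA, Ksr1 a scaffold of the MAP kinase cascade and F5 coagulation factor V. Nrg1 did not overlap between cohorts in the values above (edgeR adjusted p = 0.0235). Gzma, granzyme A of lymphocytes, had no UMI in long members and 114 in short members, at least 10.7-fold lower by a floor of 3 UMIs over the long arms, and 61 of the 114 lay in 1 barcode. Runx1, a hematopoietic transcription factor, had 252 ± 32.8 against 436 ± 101 CPM (−0.75 ± 0.13, edgeR adjusted p = 0.0235), and Foxp1 (−0.98 ± 0.14) and Nedd9 (−0.98 ± 0.13), named for their small p after the values were seen, also fell.

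Other measures moved with the cohort beside these genes. The genes that fell had a median genomic span of 117 kb, with 59.1% over 100 kb, the genes that rose had 9.02 kb and 1.29%, and all tested genes had 24.9 kb and 12.8%. The mitochondrial share of member UMIs was 0.468% to 0.66% in long and 0.736% to 0.809% in short arms. Mitochondrially encoded respiratory chain genes were fitted lower in 13 of 13 cases (median −0.39), and mt-Nd1 (−0.64 ± 0.15) and mt-Nd5 (−0.65 ± 0.13) fell. Malat1, a nuclear RNA, overlapped between cohorts (5420 ± 316 and 5803 ± 515 CPM), as did Neat1, another nuclear RNA (223 to 345 and 331 to 434 CPM, log2 fold change −0.42 ± 0.16, edgeR adjusted p = 0.153). The part of RNA composition, library or depth in the cohort calls was not tested beyond thinning to 3000 UMIs, after which 48 genes were higher and 14 lower.

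The same direction was seen in the other Lyz2-positive barcodes of the same libraries. Of the 156 genes that rose in members 153 were higher there too, with a median of 0.52 against 0.77 in members, and of the 142 that fell 137 were lower (−0.77 against −0.83). The difference between both classes was therefore tested directly, as the interaction of class and cohort over 16 sums with arm as a block. Of 8763 genes 21 (0.24%) had a higher cohort difference in members than in the others and 2 (0.0228%) a lower one at an edgeR adjusted p of 0.05, with 769 genes at an unadjusted p under 0.05. The 21 include the gate gene Plac8, whose values chose the classes, and nothing is read from it. DESeq2 called 38 and 5. The number of edgeR calls was 4 without long anti-MIF, 5 without short anti–PD-1 and 8 without short anti–PD-1/anti-MIF.

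Of the 8 nonclassical monocyte genes of the list 2 passed, Ace and Adgre4, against 0.24% higher of all 8763 genes. All 8 were fitted higher, with a median of 0.77 against 0.05 over all genes. Ace had 51.6, 122, 80.5 and 72.9 CPM in long and 129, 119.7, 157 and 159.6 CPM in short members, against 26.5, 36.6, 15.8 and 15.9 CPM in long and 122, 113, 142 and 103 CPM in short other barcodes. Ace was lower in the long cohort in both classes, without overlap in the others and with 1 arm overlapping in members, whose own difference did not pass (−0.73 ± 0.20, lower in 3 of 4 pairs, edgeR adjusted p = 0.0752). The difference was larger in the others (difference of differences 1.91 ± 0.23 on the log2 scale, edgeR adjusted p = 0.00144). Adgre4 (2.10 ± 0.37) passed as well, as did Ear2 (1.73 ± 0.30) and Ceacam1 (1.43 ± 0.26), which are not in that list and whose member means were not lower in the long cohort. Their mean levels in others were 21.4, 23.7 and 19.4 CPM in the long and 66.0, 58.5 and 39.0 CPM in the short cohort, and in members 47.0, 76.3 and 69.4 against 53.5, 67.0 and 63.2 CPM. The gate made both classes by fixed UMI limits, while members held a median of 9803 UMIs in the long and 6920 in the short cohort. At the Ly6c2 limit, the 153 short barcodes with 1 UMI, which fell to the others, had 397 CPM of Ace. The 33 such long barcodes had 99.8 CPM. The part of the gate and of depth in these differences was not tested.

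Further calls had varied functions. Ptgs2, cyclooxygenase 2, had 182 ± 35.1 and 229.6 ± 60.1 CPM in long and short members against 74.3 ± 9.28 and 248 ± 94.0 CPM in the others (1.39 ± 0.18, edgeR adjusted p = 0.00224). Vegfa, the angiogenic factor, had 173 ± 47.2 and 210.4 ± 24.2 against 105 ± 11.6 and 253 ± 15.7 CPM (0.96 ± 0.18, edgeR adjusted p = 0.0278). Clec4e, the receptor Mincle, gave 1.12 ± 0.17, Bhlhe40, a transcription factor of cytokine control, 1.28 ± 0.19, Ddit4, an mTOR inhibitor, 1.31 ± 0.18, Cmpk2, a mitochondrial nucleotide kinase induced by IFN, 1.53 ± 0.29, and Slc16a3, a lactate transporter, 0.72 ± 0.14. Cxcr4 fell less in members (0.91 ± 0.18). 2510009E07Rik, 4930523C07Rik and Ccl22 were also higher, and Ighm (−1.62 ± 0.30) and Bmyc (−1.74 ± 0.32) were lower. F10, Sgk1, Gsr, Clec4d and Cited2, named after their values were seen, were higher as well, Cited2 in 3 of 4 pairs. Of the 21 glycolysis and hypoxia genes tested 21 were fitted higher with a median of 0.49, against 0.05 over all genes. Among them 1 passed, against 0.24% higher of all 8763 genes. The share of the other barcodes above the C1q limit, 78.4% long and 48.2% short, moved with these differences, and its part in them was not tested.

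**Figure D5:**
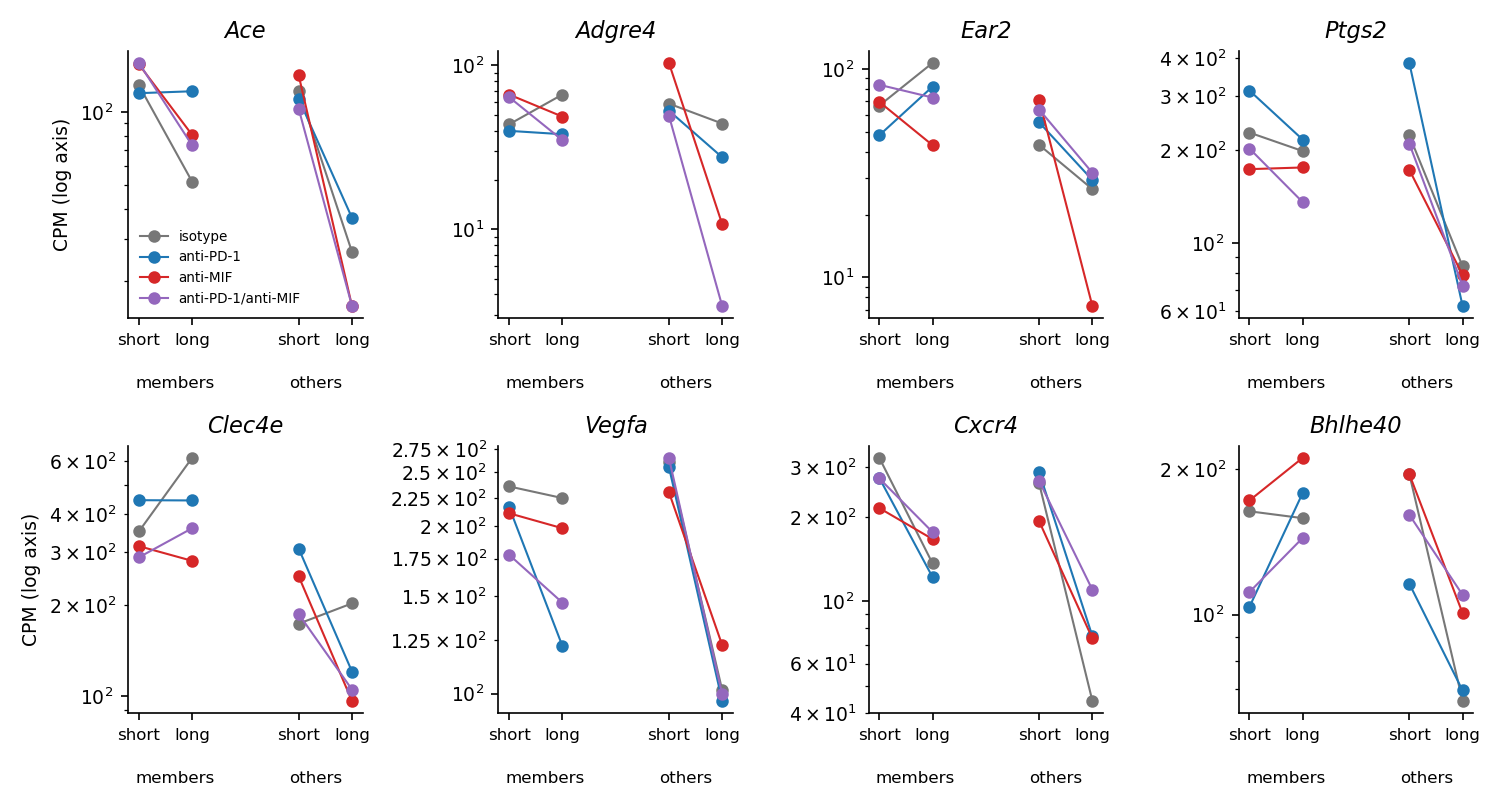
CPM (log axis) of 8 genes with a cohort difference that differed between Ly6c2 Plac8 monocytes (left pair in each panel) and other Lyz2-positive barcodes (right pair); points are arms, lines join the short and the long arm of a treatment. In the others Ace drops from 103 to 142 CPM in the short to 15.8 to 36.6 CPM in the long arms, and in members from 119.7 to 159.6 CPM in the short to 51.6 to 122 CPM in the long arms.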

How the data were processed

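The authors aligned reads to mm10 with Cell Ranger 7.1.0 and deposited filtered matrices of whole-number UMI counts per gene and hashtag, without normalization. The submitters' notes also name Seurat 5.1.0 and R 4.3.2. The annotation version is not given in the sources used here. Gene positions came from GENCODE on GRCm38 by Ensembl identifier.

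Barcodes with 200 to 5000 genes, at most 5% mitochondrial UMIs and a top hashtag of at least 3 times the second were kept, which removed 390 long and 330 short barcodes with mixed tags and 73 and 85 for quality. The tag ratio replaced the study's demultiplexing. Doublets of 1 arm were not removed, no doublet caller was run and free RNA was not subtracted. The gate, the 29 gene lists and the tests were chosen with earlier results of these data known.

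Member counts were summed per arm and tested with edgeR 4.0.16 (filterByExpr, TMM, quasi-likelihood, Benjamini-Hochberg at 0.05) in R 4.3.3, with DESeq2 1.42.0 as an alternative, and shares with exact sign-flip tests in scipy 1.17.1 (Python 3.11.15, numpy 2.4.6, pandas 2.3.3). P-values measure the spread between arms. The arms of a cohort share 1 gene expression library and differ in treatment. The cohort and interaction tests therefore measure no spread between libraries, and spread between the mice of an arm was not measured. Named genes were gate and marker genes, list genes that passed or had the highest mean CPM, and for each comparison up to 10 genes per direction with the largest change among calls in the same direction in 4 pairs, or the 5 of smallest p where none passed (15 per direction against the others). Genes outside this rule are said to be chosen after their values were seen. Tested on simulated data, the cohort model called 94.4% of genes changed by 2 log2 units, 69.9% of those changed by 1 unit and 16 of 7569 unchanged genes. The same values were 97.2%, 56.2% and 8 of 7578 for anti-MIF, and 85.7%, 49.5% and 14 of 8399 for the interaction. Simulated counts were drawn independently from the means and dispersions fitted to these sums, without barcodes that dominate a gene. These rates therefore hold under the fitted model only. Alternatives changed the tag ratio, the mitochondrial and gene limits, the gate, depth, scaling, filter and pseudocount, and left out each arm. Some genes of the lists are not reported here.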

Additional observations from a re-analysis of the deposited data

Results flagged for a closer look

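Of 74 sets of 4 arms examined, 4 held an arm whose gap to the next was wide for its range, where chance gives about 1 in 20 sets. Ccl12 in long anti–PD-1/anti-MIF members had 268.2 CPM, against 117.1 CPM in the next arm. Ccr2 in short anti-MIF members had 486.7 CPM, against 391.5 in the next. Plac8, a gate gene whose values chose the members, had 4023 CPM in short isotype members, below 4826 in the next, and nothing is read from it. Hp in short isotype members had 373.2 CPM, above 260.8.

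The cohort difference of members minus that of the other Lyz2-positive barcodes passed the edgeR interaction test for these named genes, in log2 units. It was 9.96 for Ccl22, whose short members are all at 0, so that the fitted value depends on the prior count (4.91 to 10.41 over the alternatives) and whose UMIs lay mostly in 1 arm of each class (23.4 CPM in long anti-MIF members, 24.5 CPM in short isotype others), 2.10 for Adgre4, 1.97 for 2510009E07Rik, 1.91 for Ace, 1.73 for Ear2, 1.53 for Cmpk2, 1.43 for Ceacam1, 1.39 for Ptgs2, 1.34 for 4930523C07Rik, 1.31 for Ddit4, 1.28 for Bhlhe40, 1.12 for Clec4e, 0.96 for Vegfa, 0.91 for Cxcr4 and 0.72 for Slc16a3, and −1.74 for Bmyc and −1.62 for Ighm.

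Under the tag anti-PD1-MIF-DDT, absent from the treatment label, members were 58.6% of Lyz2-positive barcodes in the long cohort (exact 95% interval 51.8 to 65.1) and 63.5% in the short cohort (59.9 to 67.0).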

How the results depend on the processing

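No mean share difference and no called gene changed direction, but single pairs did. With a tag ratio of 5 the isotype share was 33.3% in the long and 54.0% in the short cohort, and long anti–PD-1 (57.9%) was above it. With the gate after thinning to 3000 UMIs the isotype share was 65.8% in the long and 47.1% in the short cohort. The balance of cohort calls turned to 136 higher and 158 lower without TMM. Without the filter on low counts anti-MIF gave 35 genes higher and 37 lower, anti–PD-1 23 and 21, the cohort 309 and 422 and the interaction 119 and 35. The median log2 change of all genes for the cohort was −0.14 without the filter and 0.15 in the 3768 genes with an adjusted p by DESeq2. DESeq2 gave 1 higher for anti-MIF and 38 and 5 for the interaction. The cohort gave 103 and 82 with a tag ratio of 5, and 48 and 14 after thinning to 3000 UMIs. Against the other barcodes thinning gave 2 higher, log2(CPM + 10) 10 lower, and leaving out 1 arm 6 to 12 higher and 18 to 29 lower. Leaving out 1 arm each gave 0 to 4 higher and 0 to 1 lower for anti-MIF, 0 to 5 and 0 to 0 for anti–PD-1, 1 to 159 and 0 to 123 for the cohort, and 4 to 30 and 0 to 5 for the interaction. Of 48 genes named for the cohort 47 lost the call under at least 1 alternative, chosen before or after seeing the data, and of 17 for the interaction 13 did. F10, Sgk1, Gsr, Clec4d and Cited2 are not among the 17. For anti-MIF 9 of 12 named genes and for anti–PD-1 8 of 10 passed under at least 1. Leaving out 1 pair moved the share differences over −17.7 to −3.90 points (anti-MIF), 7.06 to 15.4 (anti–PD-1) and −23.2 to −9.38 (cohort). The alternatives without single-barcode members and with C1q at 0 were chosen after seeing the data, and the cause of these moves was not tested. No paired analysis by replicate number was possible because the labels give none, and arms were paired by treatment. The 29 members of long isotype set the depth limit for that arm.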
